A study of Mus musculus with 4 samples.

Results

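Beta cells with little transcript of Spp1, the gene of the secreted phosphoprotein osteopontin, were described in 4 libraries of dispersed mouse islet cells. A cell barcode was taken when it had at least 500 detected genes and at most 20% of its unique molecular identifiers (UMIs) from mitochondrial genes, and when Ins2 made up at least 5% of its UMIs, Gcg, Sst and Ppy each under 1% and Spp1 under 0.5%. The rule found 5460 cells among 16146 that passed the cell filter and 19987 barcodes in all. The members were chosen on measured values, so the share of Ins2, of the other hormones and of Spp1 is given as a description only.

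The islets came from mice aged 5 weeks, and the series title names NOD mice, a strain with spontaneous autoimmune diabetes. The labels list 2 samples of genotype Xbp1fl/fl, in which both copies of Xbp1 carry sites for Cre, and 2 of genotype Xbp1β-/-, in which Xbp1 is deleted in beta cells. All 4 samples carry a label for tamoxifen injection, given into the peritoneum at 10 mg/ml over 5 consecutive days, so the floxed controls received it too. Islets were picked by hand and kept in culture overnight before dissociation; the Cre driver and the exon between its sites are not named in the labels. The barcodes are numbered 1 to 4, and these numbers match no sample's label (0 of 4), so every value is that of 1 library of unknown genotype. For the same reason no test between libraries was made, the numbers have no order, and an interval covers counting error only.

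Beta cells make insulin, which is folded and disulfide-bonded in the endoplasmic reticulum (ER), packed into granules with amylin and granins, and released when glucose rises. The large flow of proinsulin loads the ER, and the unfolded protein response matches its capacity: the sensor IRE1α splices the Xbp1 transcript into that of a transcription factor for chaperones and secretory genes, PERK acts through ATF4, and ATF6 is a membrane-bound transcription factor. Spp1 is known as an abundant transcript of pancreatic ducts and of macrophages, and it can be found in beta cells too.

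XBP1 and ATF6 are known to act on chaperone genes through a promoter element, the ER stress response element (ERSE), in which CCAAT and CCACG stand 9 bases apart. The stretches around this motif are shown because the genes of ER chaperones, the known targets of this element, are described further on. The letters CCAAT and CCACG, with any 9 bases between them, were searched on both strands in the 200 bases before the start of each RefSeq gene of GRCm38.p6. They were found in 34 of 32851 promoters (0.103%). Of a list of 25 ER chaperones and folding enzymes, 20 genes were searched and 7 held the letters. The list search used the genes that had a promoter in the table and left out 1 chromosome that was kept in the 32851. Each is printed 5′ to 3′ on the strand of its gene, with CCAAT and CCACG, or their reverse complements, in capitals.
Calr (chr8:84847055-84847113, minus strand): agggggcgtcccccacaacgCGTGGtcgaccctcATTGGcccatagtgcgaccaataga
Canx (chr11:50325780-50325838, minus strand): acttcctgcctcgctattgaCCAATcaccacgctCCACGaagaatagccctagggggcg
Creld2 (chr15:88819500-88819558, plus strand): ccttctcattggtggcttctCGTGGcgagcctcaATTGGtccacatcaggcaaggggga
Dnajc3 (chr14:118937807-118937865, plus strand): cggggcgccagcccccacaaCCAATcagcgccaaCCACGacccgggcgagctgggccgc
Hsp90b1 (chr10:86705513-86705571, minus strand): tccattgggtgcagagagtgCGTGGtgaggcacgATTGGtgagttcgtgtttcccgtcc
Hspa5 (chr2:34772005-34772063, plus strand): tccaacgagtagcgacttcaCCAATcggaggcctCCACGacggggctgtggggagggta
Pdia6 (chr12:17266471-17266529, plus strand): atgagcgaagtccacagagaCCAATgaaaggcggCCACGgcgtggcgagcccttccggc
The match began 65 bases before the start of Hspa5 and 162 bases before that of Calr, the nearest and the farthest of the 7. The promoters of Dnajb9 and Sdf2l1 hold no match in this window, which says only that these letters are not there. The related letters ATTGG and CCACG, with any 1 base between them, were found in 9 promoters (0.0274%), none of the 20 genes. TGACGTGG was found in 172 (0.524%), of the 20 genes only in Txndc5. Both were searched on both strands of the same window. A match is a description of the sequence and not a site of binding.

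The cells were spread unevenly over the libraries. There were 216, 2998, 317 and 1929 of them in libraries 1 to 4, which was 5.94, 56.9, 9.18 and 50.9% of the cells past the filter (95% exact intervals 5.2 to 6.76%, 55.6 to 58.3%, 8.23 to 10.2% and 49.3 to 52.5%). Among cells that met the rule apart from Spp1, the low Spp1 class made up 39.6, 95.9, 46.8 and 90.1%. Beta cells of libraries 1 and 3 thus mostly stood above the Spp1 threshold and those of libraries 2 and 4 mostly below it. Between 0.4 and 0.5% of UMIs from Spp1, just inside the threshold, there were 6, 37, 23 and 49 cells, and between 0.5 and 0.6%, just outside it, 7, 27, 17 and 31. Most members lay far below it, with a median Spp1 share of 0.0114, 0.00293, 0.00842 and 0.00432% and a 90th percentile of 0.317, 0.139, 0.346 and 0.174%. No Spp1 UMI at all was seen in 11.1, 34.5, 17 and 33% of them. Just inside the lower limit of Ins2, between 5 and 6%, there were 2, 13, 1 and 4 cells, and between 4 and 5% 3, 20, 9 and 9.

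The cells were deep. The median UMI count was 43747, 42011, 46442 and 37116 in libraries 1 to 4, and 24885, 17654, 26821 and 16010 once 7 hormone genes (Ins1, Ins2, Gcg, Sst, Ppy, Pyy and Iapp) were set aside. The median number of genes detected was 6112, 4911, 6175 and 4594, and mitochondrial genes gave a median of 1.91, 1.87, 1.94 and 1.74% of UMIs. Fewer than 10000 UMIs were found in 27, 237, 47 and 114 cells. Of the cell barcodes, 45 sequences occurred in more than 1 library, and 1 of these was a member in both (libraries 2 and 4).

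Beta-cell markers were present in every library. Because hormone transcripts took a large and unequal part of the total, levels are given as counts in each 1000000 UMIs outside the 7 hormone genes (CPM), summed over the cells of a library, unless the total of all genes is named. Mafa, a transcription factor of mature beta cells, stood at 619, 1713, 567 and 1242 CPM in libraries 1 to 4, against 2.04, 26.5, 14.4 and 9.83 CPM in endothelial cells of the same libraries (165, 114, 172 and 80 cells with at least 3 of 7 endothelial markers and under 5% each of Ins2, Gcg and Sst). G6pc2, a glucose-6-phosphatase subunit of beta cells and an autoantigen of NOD mice, stood at 877, 1299, 905 and 1091 CPM against 1.02, 17.7, 23.4 and 11.5. Both were highest in library 2, and both were far above the endothelial level in each library. The endothelial cells also held markers of other types. Plasma cell markers summed to 2666, 7.24, 1843 and 4.91 CPM in them and erythroid markers to 8.68, 11.3, 20.7 and 4305. Cells were counted with at least 3 of 5 beta-cell markers outside the hormones, together at 0.1% of non-hormone UMIs or more. They numbered 111 of 216, 2629 of 2998, 157 of 317 and 1516 of 1929 in libraries 1 to 4. Alpha-cell markers passed the same measure in 101 of 216, 493 of 2998, 152 of 317 and 153 of 1929 cells. Libraries 1 and 3 thus had the smaller share of cells by beta-cell markers and the larger share by alpha-cell markers. The summed beta-cell markers stood at 1905, 3739, 1859.8 and 2835 CPM.

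Among markers of other cell types, those of alpha and ductal cells had the highest sums. Alpha-cell markers other than Gcg summed to 3591, 714, 3883 and 516 CPM, and most of this was Ttr, the thyroid hormone carrier transthyretin, at 3073, 489, 3382 and 336 CPM, and Gc, the vitamin D-binding protein, at 359.8, 108, 348 and 93.5. Ttr and Gc were high in libraries 1 and 3. Of the transcription factors of alpha cells, Irx1 stood at 5.68, 0.612, 2.98 and 0.537 CPM and Irx2 at 24, 1.98, 29.3 and 2.87. Ductal markers other than Spp1 summed to 1403, 1307, 1395 and 1426 CPM, of which the keratins Krt8 and Krt18 gave 353, 243, 381 and 251 (Krt8) and 341, 418, 339 and 493 (Krt18). The ductal sum differed little between libraries. Acinar markers summed to 55.2, 2, 8.34 and 5.84 CPM, macrophage markers to 155, 71.4, 141 and 54.8, plasma cell markers to 43.1, 185, 38.7 and 1.93 and endothelial markers to 66.9, 43.4, 29.3 and 15.8, and every remaining list (delta, pancreatic polypeptide, fibroblast, pericyte, Schwann, dendritic, B, T, mast, neutrophil, erythroid and proliferating cells) to at most 199 CPM. At least 3 markers of 1 non-endocrine class other than ductal, together at 0.1% of non-hormone UMIs or more, were found in 8, 58, 13 and 8 cells, 87 (1.59%) in all. Ductal cells were left out of that count, because ductal markers were widespread. By the same measure they were carried by 154 of 216, 1766 of 2998, 217 of 317 and 1221 of 1929 cells. No doublet caller was run, and values without the 87 cells are given for some genes and counts only.

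The insulin genes took about the same large part of the UMIs in libraries 2 and 4 and a smaller, more variable part in libraries 1 and 3. All 7 hormone genes together gave 48.6, 58.1, 45.7 and 56.9% of the summed UMIs of libraries 1 to 4. Ins2, the ancestral insulin gene of the mouse, gave 28.5, 36.5, 27.3 and 35.9%, and Ins1, the rodent copy, 11.9, 16.4, 10.9 and 15.7%. Libraries 2 and 4 were high for both. Iapp, which encodes amylin, went the other way, at 7.98, 5.04, 7.41 and 5.25%. The ratio of Ins1 to Ins2 UMIs was close in all libraries, at 0.418, 0.449, 0.398 and 0.437. In the endothelial cells, where any insulin transcript counts as background, the median share of Ins2 was 0.0514, 1.39, 0.0645 and 0.738%, at a median depth of 9976, 9254, 11566 and 7012 UMIs.

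Single cells differed more in libraries 1 and 3. The 5th percentile of the Ins2 share was 6.9, 21.7, 8.33 and 24.8% in libraries 1 to 4, whereas the 95th percentile was 42.4, 44.7, 43.2 and 43.9%. The upper ends thus lay close together and the lower ends did not. The standard deviation of the share between cells was 45.6, 20.9, 45.5 and 18.7% of its mean. Cells with less than 15% of UMIs from Ins2 made up 24.5, 2.90, 24.6 and 1.45%. For Iapp the standard deviation was 75.3, 33.6, 77 and 32.1% of the mean, and its 95th percentile reached 21.7, 7.27, 21.6 and 7.58%. Across cells, the shares of Ins1 and Ins2 had a Spearman correlation of 0.62, 0.50, 0.60 and 0.49 (n = 216, 2998, 317 and 1929 cells, which share libraries and the total each share is taken of).

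**Figure D1:**
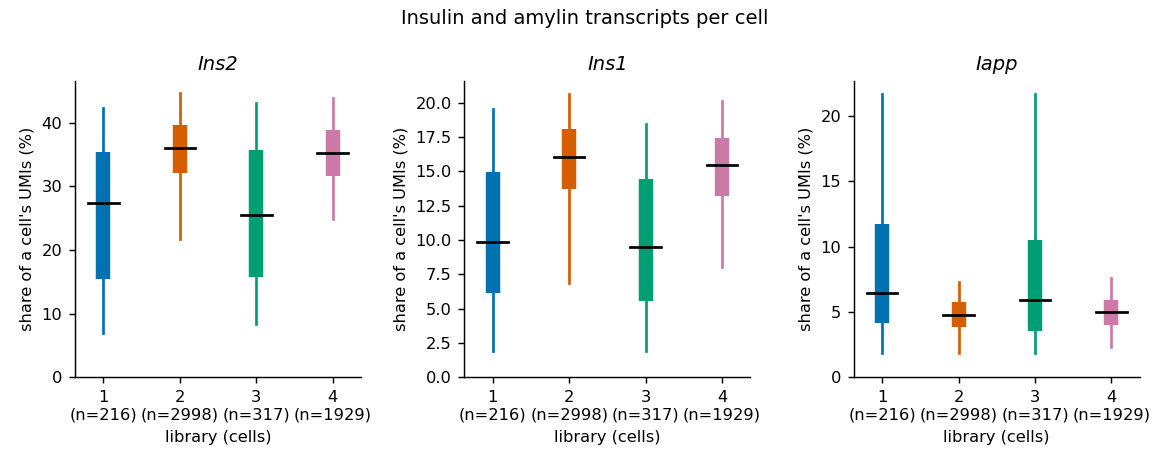
Share of each cell's UMIs (percent, y axis) from Ins2, Ins1 and Iapp in libraries 1 to 4 (x axis, with the number of cells); thick bars run from the 25th to the 75th percentile, thin lines from the 5th to the 95th, and black lines mark the median. For Ins2 the 5th percentiles lie at 6.9, 21.7, 8.33 and 24.8%, while the 95th percentiles lie between 42.4 and 44.7%.

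Of 2254 genes outside the hormones that reached 100 CPM in a library, 27 (1.2%) differed 4-fold or more between the lowest and the highest library and 157 (6.97%) 2-fold or more, in each case with 10 CPM added before the ratio was taken. With all genes in the total the counts were 14 (1.37%) and 90 (8.8%) of 1023 genes, since fewer genes then reached 100 CPM. The widest range was that of Cck, the peptide cholecystokinin, at 1161, 1.06, 959.9 and 1.23 CPM in libraries 1 to 4. Cck was all but missing in libraries 2 and 4, where the exact 95% counting intervals were 0.8 to 1.37 and 0.875 to 1.68 CPM. The log2 range was 6.73 with 10 CPM added and 9.14 with 1 CPM added, so its size at the low end depends on that choice.

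Cck was carried by part of the cells. A Cck UMI was seen in 51.9, 1.4, 54.6 and 1.5% of cells, against 1.82, 0, 1.16 and 0% of the endothelial cells, whose median depth was 9976, 9254, 11566 and 7012 UMIs against 43747, 42011, 46442 and 37116 in the beta cells. After each cell was thinned to 3000 UMIs outside the hormone genes, the share was 42, 0.416, 41.4 and 0.16%, against 0.694, 0, 0 and 0%. A share of 0 among the endothelial cells of a library allows up to 1.82, 2.63, 1.74 and 3.75% before thinning, from the 3 counts that a 0 permits. In the thinned cells of libraries 1 and 3, the tenth of the cells with most Cck held 62.7 and 61.3% of its UMIs.

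Other genes were high in libraries 1 and 3 as well. Gpx3, a secreted glutathione peroxidase, stood at 497, 39.8, 641 and 46.3 CPM. Txnip, the thioredoxin-interacting protein that glucose induces through ChREBP, stood at 396, 59.8, 403 and 47.8 CPM. Each of these genes was lower by several-fold in libraries 2 and 4. Cd81, a tetraspanin that has been used as a marker of immature beta cells, stood at 439, 58.3, 433 and 64.4 CPM, while the endothelial level was close in all libraries (425, 495, 451 and 518 CPM). Gatm, the first enzyme of creatine synthesis, stood at 93.5, 8.16, 103 and 7.13 CPM, and the transcript 6330403K07Rik at 107, 4.99, 73.4 and 5.21. Npy, neuropeptide Y, stood at 990.0, 310.5, 1098 and 261 CPM, with a UMI in 36.6, 39.4, 36.3 and 31.4% of cells against 4.85, 5.26, 8.72 and 0% of the endothelial cells, or in 25.5, 24.8, 26.1 and 21% against 1.39, 2.78, 4.35 and 0% after thinning. The share of Npy-bearing cells was thus similar in the 4 libraries and the summed level was not.

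A second set was high in libraries 2 and 4. The metallothioneins Mt1 and Mt2, which bind zinc and other metals, stood at 1607, 5760.1, 1504 and 5983 (Mt1) and 416, 2132, 397 and 2474 (Mt2) CPM. Odc1, the first enzyme of polyamine synthesis, stood at 110.4, 323, 68.7 and 528 CPM, but it also differed in the endothelial cells (170.0, 476, 133 and 462 CPM). For Odc1 the order of the libraries in the 2 cell types was nearly the same. Lcn2, the siderophore-binding lipocalin, stood at 5.68, 118, 5.48 and 206 CPM, and Hamp, the iron hormone hepcidin, at 18.9, 57.8, 3.93 and 189. Few cells carried them: after thinning, a Lcn2 UMI was seen in 0.5, 2.64, 1.07 and 5.48% of cells and a Hamp UMI in 1.5, 2.7, 0.357 and 5.48% (before thinning 13.4, 6.47, 6.31 and 8.76% and 2.31, 7, 0.315 and 8.61%). In the endothelial cells the thinned shares were 27.1, 0.926, 11.2 and 2.74% for Lcn2 and 1.39, 0, 0.621 and 0% for Hamp. For Lcn2 the endothelial share was thus the higher one in libraries 1 and 3. In library 3 all of the Hamp UMIs and 56.5% of the Lcn2 UMIs came from 1 cell each.

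Further genes of wide range rested on cells with markers of another type. Retnla stood at 72.4, 0.0185, 119 and 0 CPM, Ccl6 at 3.48, 0.278, 108 and 0 and Cd74, the MHC class II invariant chain, at 20.5, 27.8, 125 and 5.37; all are known from macrophages or other immune cells. Without the 87 cells with markers of another type, their log2 ranges went from 3.69 to 0.64, from 3.56 to 0.09 and from 3.14 to 1.17. Those of Cck, Gpx3, Txnip, Cd81, Gatm and Odc1 each stayed within 0.2 of their value.

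**Figure D2:**
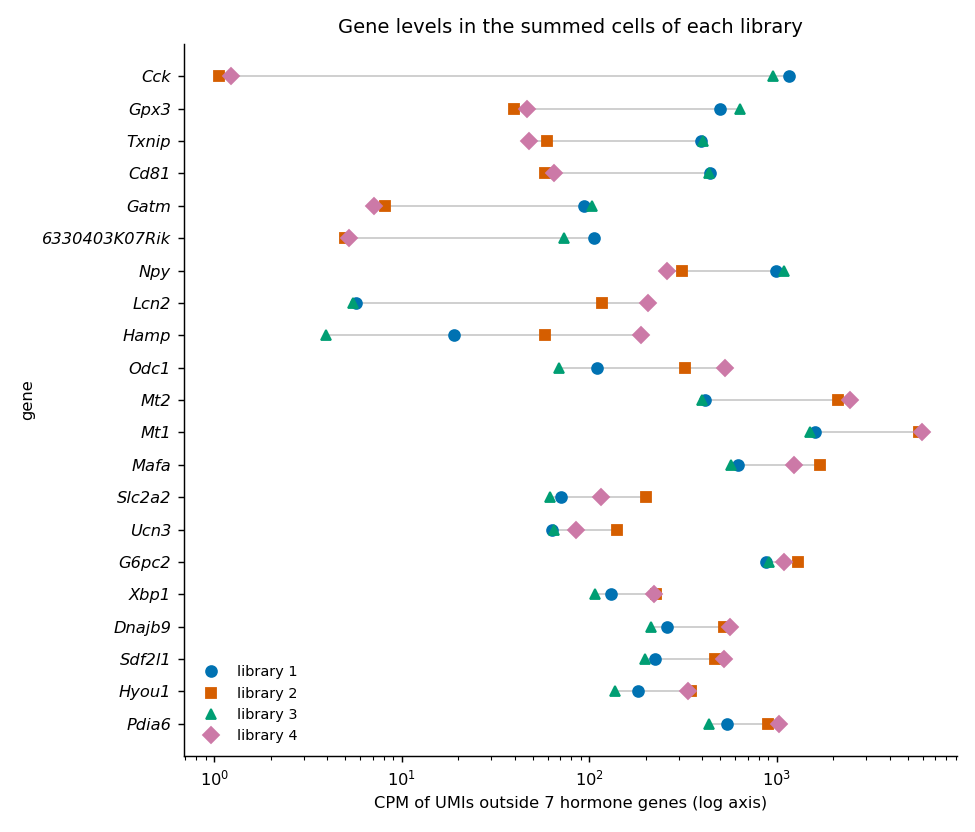
Level of genes with a wide range, beta-cell markers, Xbp1 and ER chaperone genes (y axis) in the summed cells of each library, as CPM of the UMIs outside 7 hormone genes (x axis, log scale); each symbol is 1 library and the grey line joins the lowest to the highest. Cck runs from 1.06 CPM in library 2 to 1161 in library 1, while Lcn2, Hamp, Odc1, Mt1 and Mt2 are highest in library 4.

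The median level of beta-cell identity genes differed little with the hormone genes out of the total, while single members did range. A list's level in a library is given as the median over its genes of the log2 CPM (10 added) less each gene's median over the libraries, over genes with a mean of at least 20 CPM. For 15 of the 17 identity genes this was 0.01, 0.01, 0.02 and -0.13, against 0.01, -0.01, 0.02 and -0.02 for all 6958 genes measured. Mafa ranged most (log2 range 1.58), followed by Ucn3, the peptide urocortin 3 of mature beta cells, at 62.9, 139.7, 65.1 and 85.3 CPM. Both were highest in library 2. Nkx6-1 and Nkx2-2, factors of beta-cell fate, stood at 275, 386, 261 and 302 (Nkx6-1) and 165, 147, 159 and 119.6 (Nkx2-2) CPM. At least 2-fold range was seen in 3 of the 15, beside 316 of 6958 (4.54%) of all genes measured.

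Among 16 genes of glucose sensing and excitability, whose level was -0.04, 0.11, -0.07 and 0.06, Slc2a2, the glucose transporter GLUT2, was the only one to range at least 2-fold, at 70.8, 201, 61.5 and 115 CPM. With all genes in the total the median of all genes itself moved to 0.10, -0.12, 0.17 and -0.11, and the levels of glucose sensing (0.04, -0.06, 0.07 and -0.05), processing (0.04, -0.04, -0.08 and -0.01) and granule genes (0.03, -0.05, 0.08 and -0.12) turned sign in most libraries, as did those of the identity genes in library 2 (0.12, -0.15, 0.19 and -0.21). Slc2a2 was highest in library 2, as Mafa was. Mpc1, a subunit of the mitochondrial pyruvate carrier, stood at 189, 248, 186 and 284 CPM and Glp1r, the incretin receptor, at 227, 235, 208 and 175. The 9 prohormone processing genes stood at -0.07, 0.20, -0.27 and 0.11. Among them Prss53, a serine protease, stood at 272, 628, 224 and 531 CPM, the convertase Pcsk1 at 458, 719, 379 and 765, the convertase Pcsk2 at 3331, 4946, 3305 and 4747 and the carboxypeptidase Cpe at 1496, 1867, 1266 and 1756. All 4 were lowest in library 3. Of 19 granule and exocytosis genes (-0.02, 0.13, -0.04 and 0.03), Chgb and Scg2, granins of the granule matrix, were high in libraries 1 and 3, at 6762, 2894, 6429 and 3459 (Chgb) and 5607, 2903, 4857 and 3239 (Scg2) CPM. Vgf and Ptprn (IA-2, an autoantigen of type 1 diabetes) were high in libraries 2 and 4, at 203, 312, 162 and 382 (Vgf) and 498, 902, 443 and 876 (Ptprn) CPM. The 9 islet autoantigen genes measured outside the hormones stood at -0.14, 0.20, -0.13 and 0.13, or -0.01, 0.02, 0.03 and -0.03 with all genes in the total, among them Tspan7 at 207, 261, 184 and 252 CPM and the zinc transporter Slc30a8 at 236, 272, 233 and 218.

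Xbp1 itself stood at 131, 227, 107 and 222 CPM in libraries 1 to 4, with exact 95% counting intervals of 121 to 141, 223 to 231, 99.9 to 114 and 217 to 227 CPM. Libraries 2 and 4 were high and their intervals overlapped, and library 3 was lowest. In endothelial cells libraries 1 and 3 were the high ones, at 332, 128, 289.9 and 106 CPM. Plasma cell markers in these endothelial cells were also high there, at 2666, 7.24, 1843 and 4.91 CPM in libraries 1 to 4. So were macrophage markers, at 544, 9.65, 388 and 6.55 CPM. The part of such transcripts in the endothelial Xbp1 values was not tested. With all genes in the total the beta-cell levels were 67.3, 95.1, 58 and 95.7 CPM, and the log2 range went from 1.02 to 0.64. An Xbp1 UMI was seen in 73.6, 91.7, 69.1 and 90.5% of cells, or 29, 47.5, 25.7 and 48.5% after thinning to 3000 UMIs, where the endothelial share was 50.7, 25.9, 47.2 and 26%. A UMI of Xbp1 does not show whether the transcript comes from an intact allele, because the labels do not say which exon is removed.

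ER chaperone and folding genes likewise stood higher in libraries 2 and 4 than in 1 and 3. For the 25 genes of the list the level was -0.26, 0.27, -0.40 and 0.35, and 18 of the 25 were highest in library 4, beside 22.1% of all genes measured (24.3, 20.6 and 33% were highest in libraries 1, 2 and 3); with all genes in the total it was -0.12, 0.11, -0.17 and 0.22, where all genes measured stood at 0.10, -0.12, 0.17 and -0.11. Dnajb9 (ERdj4), a co-chaperone known to be induced by XBP1, stood at 259, 523, 214 and 565 CPM. Sdf2l1, which works with the chaperone BiP, stood at 224, 467, 199 and 525 CPM, and Hyou1 and the disulfide isomerase Pdia6 at 182, 348, 138 and 338 (Hyou1) and 545, 897, 433 and 1024 (Pdia6). All of these were low in libraries 1 and 3. In 6 of the 25 the range was at least 2-fold and in none 4-fold, beside 4.54% and 0.69% of all genes measured.

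The 7 genes with the ERSE letters did not stand together. Hspa5, which encodes BiP, stood at 1454, 2207, 1397 and 2370.2 CPM, and Calr, the lectin chaperone calreticulin, at 566, 892, 564 and 931. Creld2 stood at 127, 202, 119 and 235 CPM, Dnajc3 at 415, 475, 355 and 538 and Canx, calnexin, at 389.8, 455, 357 and 453. Hsp90b1, the ER paralog of HSP90, was level at 2237, 2103, 2237 and 2166 CPM, and with all genes in the total it was highest in libraries 3 and 1 (1150.3, 882, 1214 and 933 CPM). The log2 range of the 7 ran from 0.09 (Hsp90b1) to 1.22 (Pdia6) with a median of 0.71, beside a range from 0.54 to 1.36 and a median of 0.77 in the 13 genes of the list without the letters. The values of genes with and without the letters thus overlapped.

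Further steps of the secretory pathway had the order of the chaperones with smaller differences. Levels were -0.19, 0.19, -0.34 and 0.24 for 26 genes of ER translocation and glycosylation, -0.21, 0.25, -0.35 and 0.26 for 24 of ER to Golgi transport and -0.16, 0.18, -0.37 and 0.26 for 9 sensors and regulators of the unfolded protein response. With all genes in the total they were smaller, at -0.08, 0.05, -0.12 and 0.13 for translocation, -0.08, 0.09, -0.14 and 0.15 for transport and -0.03, 0.03, -0.16 and 0.13 for the sensors. Spcs3, a subunit of signal peptidase, stood at 232, 378, 182 and 373 CPM, and Ostc, of the oligosaccharyltransferase, at 467, 737, 391 and 775. The coat gene Sec23b stood at 87.3, 159.6, 73.5 and 158 CPM and the cargo receptor Lman1 at 413, 583, 323 and 612. Of the sensors, Atf6 stood at 90.9, 131, 84.6 and 138 CPM and Ern1, which encodes IRE1α, at 118, 141, 131 and 135. Ern1 thus differed less than Xbp1. In ER-associated degradation the 17 genes stood at -0.08, 0.07, -0.10 and 0.04, or 0.06, -0.09, 0.07 and -0.06 with all genes in the total, where the signs turn. Its members stood apart, with Selenos at 275, 459.9, 247 and 489 CPM but Erlec1, a lectin of the same pathway, highest in library 1 (299, 174, 275 and 188 CPM).

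PERK and ATF4 response genes stood at -0.24, 0.21, -0.26 and 0.28 (23 genes), or -0.10, 0.04, -0.05 and 0.17 with all genes in the total, and 19 of them were highest in library 4, beside 22.1% of all genes measured. Vldlr, a lipoprotein receptor, stood at 71, 173, 71.2 and 204 CPM, and the serine synthesis genes Psph and Phgdh at 231, 387, 175 and 439.5 (Psph) and 63.1, 106, 42.9 and 110.2 (Phgdh). Chac1, a glutathione-degrading enzyme, stood at 126, 232, 118 and 251 CPM. The factors at the centre of the pathway ranged less, with Atf4 at 474, 639.7, 466 and 691 CPM and Ddit3 (CHOP) at 209, 287, 284 and 323.

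Lists that were high in libraries 1 and 3 held the genes of immature or disallowed kind (0.57, -0.73, 0.85 and -0.67, 9 of 20 measured) and of the ChREBP response (0.53, -0.57, 0.50 and -0.42, 8 of 10). Besides Cck, Cd81 and Npy, the first holds Rbp4, a retinol-binding protein, at 162, 60.7, 196 and 70.2 CPM, and Rbp4 is also a marker of delta cells, whose hormone Sst was capped by the rule. In the second, Rgs16, a regulator of G-protein signalling, stood at 92.8, 22.6, 101 and 24.3 CPM. For both lists libraries 1 and 3 were also high with all genes in the total (0.61, -0.79, 0.92 and -0.61 and 0.49, -0.55, 0.52 and -0.42).

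Interferon-stimulated genes stood at 0.90, -0.38, 0.38 and -0.51 (11 of 23 measured), and 10 of the 11 were highest in library 1, beside 24.3% of all genes measured. Bst2, tetherin, stood at 127, 27.2, 78.8 and 17.4 CPM and Ifi27 at 363, 153, 237 and 139.5. The endothelial cells had more Bst2, at 1980.4, 157, 1513 and 154 CPM, and in the same order of libraries. Without the cells with markers of another type the log2 range of Bst2 was 1.88 rather than 2.33. MHC class I presentation genes (0.12, -0.04, 0.22 and -0.15, 9 of 13) went in different directions: Psmb8, an immunoproteasome subunit, stood at 152, 68.4, 139 and 68.1 CPM, whereas H2-K1 and B2m, the class I chain and its partner, stood at 321, 517, 249 and 458 (H2-K1) and 157, 244, 121 and 166 (B2m). B2m was higher in the endothelial cells of each library (2532, 1181, 2119 and 1220.4 CPM).

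Immediate early genes, which respond within minutes to stimulation or handling, stood at 0.30, -0.48, 0.25 and -0.16 (15 of 20). Fos stood at 494, 186, 493 and 198 CPM, Jun at 864, 294, 668 and 355 and Btg2 at 775, 306, 696 and 349, all high in libraries 1 and 3, whereas Ier3 was highest in library 4 (97.2, 129, 56 and 259.7). Targets of p53 and senescence genes stood at 0.36, -0.18, 0.22 and -0.20 (11 of 15). Within that list Ccng1 and Trp53inp1 were high in libraries 1 and 3 (192, 85.8, 203 and 85 CPM for Ccng1 and 97.4, 43.8, 109 and 47.4 for Trp53inp1), while Igf1r, the receptor of insulin-like growth factor 1, was high in libraries 2 and 4 (872, 1785, 786 and 1697 CPM). Only 3 of 15 cell cycle genes were measured (-0.05, 0.10, 0.05 and -0.09), among them Ccnd2, the main cyclin D of beta cells, at 1019, 1128, 1091 and 989.8 CPM and Ccnd1 at 171, 72.1, 142 and 58. The lists of general cell functions were level with the hormone genes out of the total: 0.00, 0.00, 0.00 and 0.00 for 27 genes of oxidative phosphorylation, 0.01, 0.00, 0.01 and -0.01 for 26 of the ribosome, -0.06, 0.07, -0.09 and 0.09 for 20 of the proteasome and 0.00, -0.06, 0.04 and 0.00 for 16 antioxidants and metallothioneins. With all genes in the total oxidative phosphorylation stood at 0.10, -0.14, 0.21 and -0.11 and the ribosome at 0.14, -0.17, 0.20 and -0.15. The proteasome then stood at 0.02, -0.08, 0.09 and -0.02 and the antioxidants and metallothioneins at 0.10, -0.26, 0.22 and -0.11. All genes measured stood at 0.10, -0.12, 0.17 and -0.11 in that total. Single members of these lists did range, such as Mt1, Mt2 and Gpx3 above. In the oxidative phosphorylation list 2 of 27 ranged at least 2-fold, among them the complex I gene Ndufa1, at 770.5, 361, 826 and 352 CPM, high in libraries 1 and 3.

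**Figure D3:**
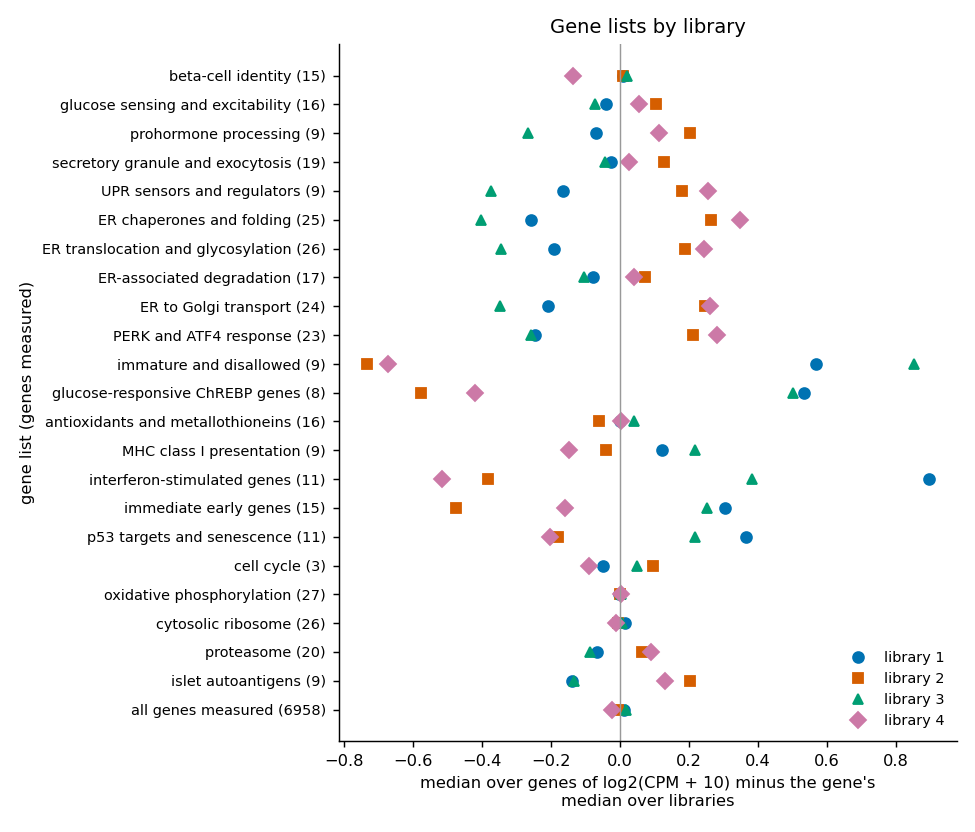
Median level of each gene list (y axis, with the number of genes measured) in libraries 1 to 4, as log2(CPM + 10) less each gene's median over the libraries (x axis); each symbol is 1 library. ER chaperones stand at -0.26, 0.27, -0.40 and 0.35 in libraries 1 to 4, immature and disallowed genes at 0.57, -0.73, 0.85 and -0.67, and all genes measured near 0.

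Within libraries 1 and 3 the level of Xbp1 and of several secretory genes went with the Ins2 share of the cell, which was used by the rule and serves here only to order the cells. In cells with 5 to 15, 15 to 25, 25 to 35 and at least 35% of UMIs from Ins2, Xbp1 stood at 50.5, 70.4, 189 and 179 CPM in library 1 (53, 45, 60 and 58 cells). In library 3 it stood at 54.8, 75.4, 132 and 164 CPM (78, 75, 77 and 87 cells). In library 2 it stood at 202, 228, 233 and 223 CPM and in library 4 at 243, 249, 229 and 215. Xbp1 was thus lowest in the cells of libraries 1 and 3 with under 25% Ins2, and their cells with at least 35% came nearer to libraries 2 and 4 without reaching them. The lowest Ins2 class of libraries 1, 2 and 3 also held more transcript of immune cells, with Retnla at 312, 2.71, 2.63 and 3.14 CPM over the classes of library 1 and 404, 5.34, 8.16 and 3.79 in library 3, and Cd74 at 307, 4.75, 82 and 61.6 in library 3 and 2089, 104, 10 and 5.71 in library 2. Without the cells with markers of another type, Retnla stood at no more than 7.96 CPM in any class and Cd74 of library 2 at 262, 4.75, 7.87 and 3.82. Xbp1 was then at 52, 70.4, 192 and 177 CPM in library 1 and 48.7, 75.4, 134 and 163 in library 3, and Mafa at 412, 1473, 1770.3 and 1716 in library 2 and 199.7, 991, 1293 and 1217 in library 4.

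Dnajb9 had a similar course, with 131, 145, 326 and 371 CPM in library 1 and 109.9, 193, 254 and 305 in library 3, against 634, 496, 523 and 522 in library 2 and 829.7, 515, 554 and 574 in library 4. Cpe went up with the Ins2 share in each library, at 581, 850.4, 1868 and 2293 CPM in library 1 and 561, 888, 1705 and 1909 in library 3, and in the top class the 4 libraries lay between 1908 and 2293 CPM. Hspa5 had another course: in library 2 it stood at 7732, 4294, 2331 and 1932 CPM and in library 4 at 6906, 3218, 2615 and 2072, and was thus highest where Ins2 was lowest. The lowest class of libraries 2 and 4 held few and shallow cells (87 and 28 cells with a median of 2723 and 3599 UMIs, and a median mitochondrial share of 3.07 and 13.3%). With cells under 10000 UMIs left out, 10 and 4 cells remained there and Hspa5 stood at 12931 and 10196 CPM; the part of the mitochondrial share in this was not tested.

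Mafa ran opposite ways. It stood at 997, 798, 414 and 399 CPM over the 4 Ins2 classes of library 1 and at 1074, 755, 232 and 192 in library 3, where cells rich in Ins2 had little Mafa. In library 2 it stood at 519, 1432, 1761 and 1713 CPM and in library 4 at 204, 998, 1296 and 1216, where the poorest cells had the least (45.1 CPM in library 4 over the 4 cells of at least 10000 UMIs). In cells with 5 to 15% Ins2 the Mafa level of libraries 1 and 3 was therefore above that of libraries 2 and 4, and in cells with at least 35% it was below. The few and shallow cells of the lowest class in libraries 2 and 4 were poor in other beta-cell markers too. G6pc2 stood there at 333 and 287 CPM, against 1231 and 996 in the highest class, and Slc2a2 at 68.7 and 44.7 against 193 and 109. In the lowest class of libraries 1 and 3 G6pc2 stood at 1228 and 1333 CPM. Npy was nearly absent from the Ins2-rich cells of library 1, at 1750.0, 2823, 72.2 and 7.53 CPM, and low in those of library 3, at 1307, 2179, 1057 and 39.8, but not in libraries 2 (42.1, 203, 263 and 352) and 4 (389, 137, 241 and 284). The stress-response gene Nupr1 was higher in each further Ins2 class of library 1 (203, 395, 902 and 1195 CPM), library 2 (64.3, 174, 392 and 518) and library 3 (181, 333, 615 and 916), and stood at 696, 341, 565 and 766 in library 4. Cck stayed at 831 CPM or more in each Ins2 class of library 1 (1205, 1571, 1170.3 and 835 CPM) and library 3 (1010.0, 992, 1005 and 831). The libraries that were high in Cck were thus high at every Ins2 share, which was not so for Npy.

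**Figure D4:**
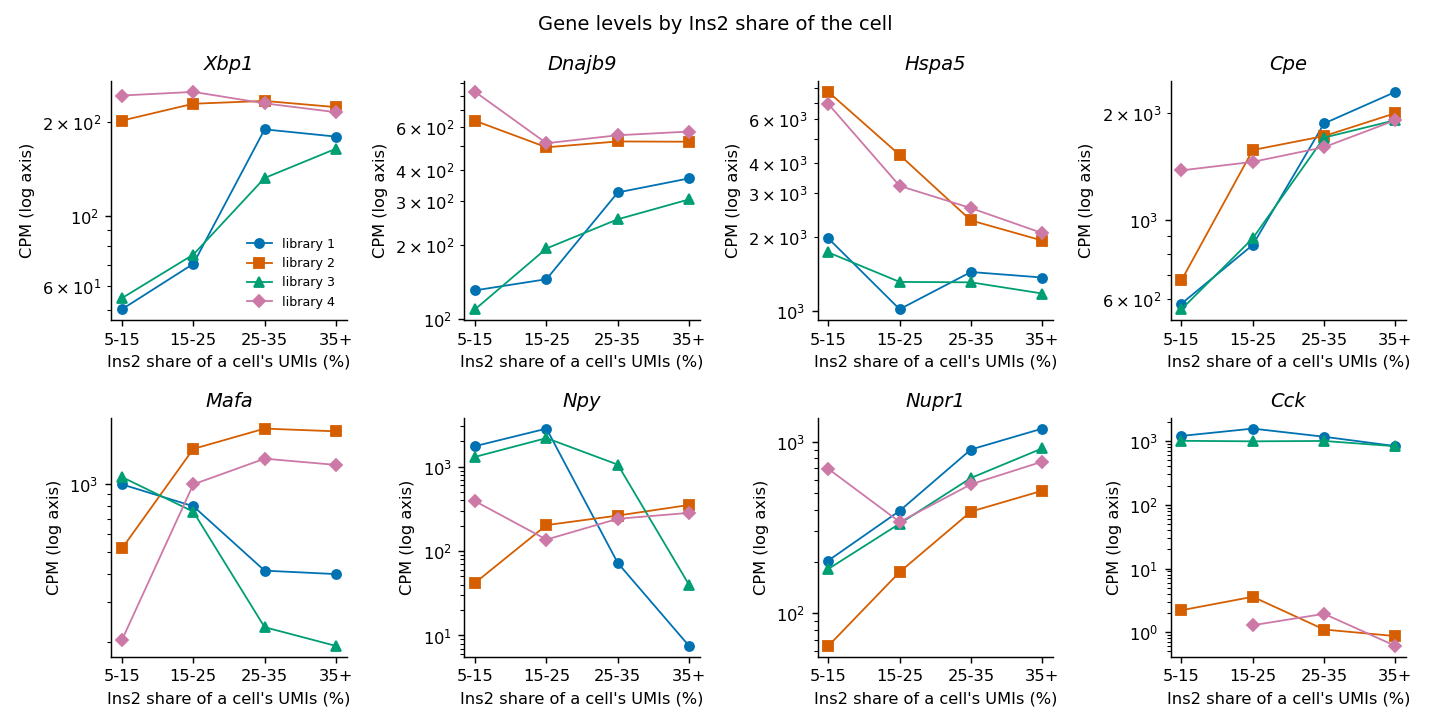
Level of single genes (y axis, CPM of the UMIs outside 7 hormone genes, log scale) in cells grouped by the share of their UMIs from Ins2 (x axis, percent), with a line for each library. Xbp1 stands at 50.5 CPM in the lowest class of library 1 and 179 in the highest; Cck of library 4 in the lowest class is 0 and not drawn.

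Per cell, the share of hormone UMIs had a Spearman correlation with the summed prohormone processing genes of 0.59, 0.37, 0.53 and 0.39 in libraries 1 to 4 (n = 200, 2884, 280 and 1878 cells thinned to 3000 non-hormone UMIs), and with ER translocation genes of 0.61, 0.22, 0.46 and 0.15. With ER chaperones it was 0.30, -0.06, 0.14 and -0.11 and with beta-cell identity genes -0.10, 0.00, -0.21 and 0.00. The points are cells of 1 library and share its handling, and the correlation is given as a description. The correlation was positive in each library for processing and translocation genes and had no common sign for the chaperones. A positive sign in each library was not particular to those lists. With ribosomal genes it was 0.28, 0.34, 0.35 and 0.31 and with PERK and ATF4 response genes 0.25, 0.27, 0.27 and 0.24. With granule genes it was 0.34, 0.14, 0.32 and 0.10. The sensors, ER-associated degradation and autoantigen genes were also positive in each library.

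Variation between cells was examined in the thinned cells, where counting alone would give a variance equal to the mean. For the median gene the variance was 1.06, 1.05, 1.05 and 1.05 times the mean in libraries 1 to 4. Of 4420 genes with a mean of at least 0.1 UMI in every library, 65 (1.47%) had a variance of at least 2 times the mean in every library, and another random draw gave 68. In single libraries the share was 2.65, 2.44, 3.04 and 2.49%. Malat1, a nuclear non-coding RNA, had the highest median ratio over the libraries, at 50.4, 49.6, 56.9 and 35.6 times the mean. Mt1 and Mt2 had ratios of 16.2, 34.6, 17.7 and 38.1 (Mt1) and 7.38, 15.9, 15.5 and 18.2 (Mt2), larger in libraries 2 and 4 where their level was higher. Crybb3, a crystallin, had ratios of 20, 17.7, 29.1 and 29.8, the granins 24.8, 7.15, 22.6 and 8.87 (Chgb) and 14, 7.82, 17.4 and 4.6 (Chga), and Npy 21.4, 8.04, 31.3 and 7.52. Ttr had 15.9, 2.83, 24.2 and 2.67, and Nupr1 12.3, 8.01, 7.82 and 13.8. For Chgb, Npy and Ttr the ratio was larger in libraries 1 and 3, where their levels were higher too. The ratio grows with the level of a varying gene, so by itself it does not show that cells differed more there.

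The variance of Hspa5 was 19.2, 9.55, 5.34 and 5.14 times the mean, more than other chaperones such as Dnajb9 (1.71, 1.64, 1.43 and 1.49), and that of Mafa 4.78, 3.9, 3.72 and 4.13 times. Xbp1 had ratios of 1.16, 1.03, 1.44 and 1.04, at 6 UMIs or fewer in any thinned cell. At so few UMIs the ratio has little room to rise, so it does not show that Xbp1 was even between cells. Gm42418, a gene model that overlaps ribosomal RNA, had ratios of 8.7, 17.3, 11.8 and 50.8. Some genes of this group leaned on single cells: Fth1 (57.2, 11.6, 10.8 and 4.07), of which 1 cell held 33.8% of the library 1 UMIs, and Fabp5 and Tmsb4x (1.85, 19.4, 13.6 and 6.93 for the first, 6.11, 9.09, 42.5 and 2.31 for the second), of which 1 cell held 29.6 and 16.9% of those of library 1 and 20.4 and 12.6% of those of library 3. Spp1 also varied (10.9, 14.7, 13 and 15) although the rule caps it. Among the lists, 4 of 16 antioxidants and metallothioneins, 5 of 19 granule genes and 3 of 8 prohormone processing genes passed in every library, beside the 1.47% of all genes. So did 2 of 3 immature and disallowed, 2 of 7 autoantigen, 2 of 8 p53 and senescence, 2 of 11 immediate early and 2 of 25 ER chaperone genes. None of 26 ribosomal, 27 oxidative phosphorylation or 20 proteasome genes passed. With a mean of at least 0.5 UMI required, 55 of 895 genes passed, so the share over all genes was higher among abundant ones.

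Each library also held cells that met the rule but for Spp1 at 0.5% or more (330, 128, 361 and 213 cells). The share of Spp1 divides the 2 classes, so their differences are a description, with 1 pair of sums in a library. Among 2434 genes at 100 CPM or more in either class, 3 (0.123%) were at least 2-fold higher in the low Spp1 cells of every library and 4 (0.164%), Spp1 among them, at least 2-fold lower. The 3 became 1 with all genes in the total, Wnt4, Fbp1 standing at 0.87 in library 2 and Mrln at 0.92 and 0.91 in libraries 2 and 4 on the log2 scale. By any size, 27.5% were higher and 10.4% lower in every library. Within single libraries, 2.05, 0.616, 1.4 and 0.288% of genes were at least 2-fold higher and 1.48, 0.698, 0.37 and 0.698% at least 2-fold lower. Wnt4, a Wnt ligand, stood at 334, 118, 336 and 99.2 CPM in low Spp1 cells and 82.5, 25.2, 100.1 and 22 in high Spp1 cells, log2 ratios of 1.89, 1.87, 1.65 and 1.77. Fbp1, fructose-bisphosphatase, stood at 163, 40.7, 271 and 63.9 against 47.7, 10.9, 46.9 and 13.1 CPM (log2 ratios 1.58, 1.28, 2.31 and 1.68), and Mrln, a small inhibitor of the calcium pump SERCA, at 155, 168, 170.5 and 134 against 45.7, 74.2, 60.9 and 57.9 (1.56, 1.08, 1.35 and 1.08). These 3 genes stood at no more than 19.7 CPM in the endothelial cells.

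Wnt4 and Fbp1 were themselves higher in libraries 1 and 3. A Wnt4 UMI was seen in 79.6, 55.4, 78.2 and 47.1% of low Spp1 cells (2.42, 6.14, 1.74 and 5% of endothelial cells), and in 48, 25.3, 54.3 and 20.9% after thinning (0.694, 1.85, 0 and 1.37%). Among the next in size were Tmsb15b2, a thymosin (1.07, 1.01, 0.98 and 0.86), Hap1 (0.66, 0.69, 0.64 and 0.67) and Selenop, a selenium carrier (0.96, 0.79, 0.69 and 0.55). For Hap1 the ratio was nearly equal in the 4 libraries. The list goes on with Lrrc10b (0.83, 0.66, 0.64 and 0.52), the organic anion transporter Slco1a6 (1.46, 0.52, 1.36 and 0.74), Fam183b (0.72, 0.58, 0.61 and 0.51), the decarboxylase Ddc (0.72, 1.51, 0.46 and 1.15) and Tceal3 (0.83, 0.42, 0.98 and 0.60).

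Besides Spp1, 3 genes were at least 2-fold lower in the low Spp1 cells of every library. Lcn2 stood at 5.68, 118, 5.48 and 206 CPM against 169, 479, 70.4 and 935 in high Spp1 cells (log2 ratios -3.51, -1.94, -2.38 and -2.13), Defb1, a beta-defensin, at 94.8, 263, 78.4 and 322 against 367, 802, 205 and 1063 (-1.85, -1.57, -1.28 and -1.69), and the protease inhibitor Serpina3n at 94.8, 68.3, 98.3 and 78.1 against 249, 155, 260.3 and 204 (-1.31, -1.07, -1.32 and -1.28). The next in size did not reach 2-fold in each library. The chemokine Cxcl1 had ratios of -1.46, -1.91, -0.84 and -1.76, the NF-kappaB adaptor Tifa -1.34, -0.98, -1.21 and -0.79, the mitochondrial superoxide dismutase Sod2 -0.91, -1.24, -0.69 and -1.07, the lipopolysaccharide receptor Cd14 -1.45, -1.50, -0.59 and -1.86 and complement factor B (Cfb) -0.57, -1.01, -0.81 and -1.59. Rgs4, an abundant regulator of G-protein signalling, stood at 1029, 477, 1036 and 531 CPM against 2119, 919, 2156 and 920.4, and Arhgap36, Wdr72 and Lbh had ratios of -1.15, -0.60, -1.23 and -0.71 (Arhgap36), -0.62, -0.73, -0.59 and -0.62 (Wdr72) and -0.60, -0.73, -0.57 and -0.58 (Lbh). Markers of neutrophils, which also carry Lcn2, summed to 0.183, 18.4, 0.357 and 20.1 CPM in low and 0.302, 687, 0.0978 and 141 in high Spp1 cells, and those of macrophages to 155, 71.4, 141 and 54.8 and 74, 49.5, 47.6 and 54.5. Acinar markers stood at 3463, 0, 5.87 and 1.83 CPM in high Spp1 cells, a large amount in library 1 alone. The ratios of the genes named each way were recomputed without the cells of either class that had markers of another type. In the median over the libraries, 0 of them changed sign. The part of each kind of marker in the ratios was not tested.

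By list, 10 of 15 immediate early genes and 6 of 9 MHC class I genes were lower in the low Spp1 cells of every library, beside 7.55% of all genes measured. These were 12 and 7 with all genes in the total, beside 25.3%. Higher in every library were 20 of 26 ribosomal, 20 of 26 ER translocation, 15 of 24 ER to Golgi and 15 of 25 ER chaperone genes, beside 23.5%, but with all genes in the total 4, 7, 4 and 5, beside 5.02%. The sizes differed: the median ratio of the chaperones was 0.78, 0.04, 0.44 and 0.10 in libraries 1 to 4, and that of the ribosomal genes 0.22, 0.08, 0.26 and 0.08. With all genes in the total the chaperones stood at 0.45, -0.03, 0.22 and 0.03 and the ribosomal genes at -0.11, 0.01, 0.04 and 0.02, where the median of all genes measured was -0.20, 0.00, -0.16 and 0.01, and signs turned for the chaperones in library 2 and the ribosomal genes in library 1. Xbp1 had log2 ratios of 1.23, 0.11, 1.11 and 0.05 and Dnajb9 of 1.45, 0.04, 0.97 and 0.07, so their difference between the classes was that of libraries 1 and 3. Mafa (0.03, 1.34, -0.52 and 1.12), Slc2a2 (0.14, 1.48, -0.86 and 1.20) and Ucn3 (-0.37, 1.19, -0.71 and 1.06) were higher in the low Spp1 cells of libraries 2 and 4 and lower or level in those of libraries 1 and 3. In libraries 1 and 3 the high Spp1 cells also held less Ins2, 15.7 and 17% of their UMIs, whereas in libraries 2 and 4 they held 34.5 and 34.4%.

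**Figure D5:**
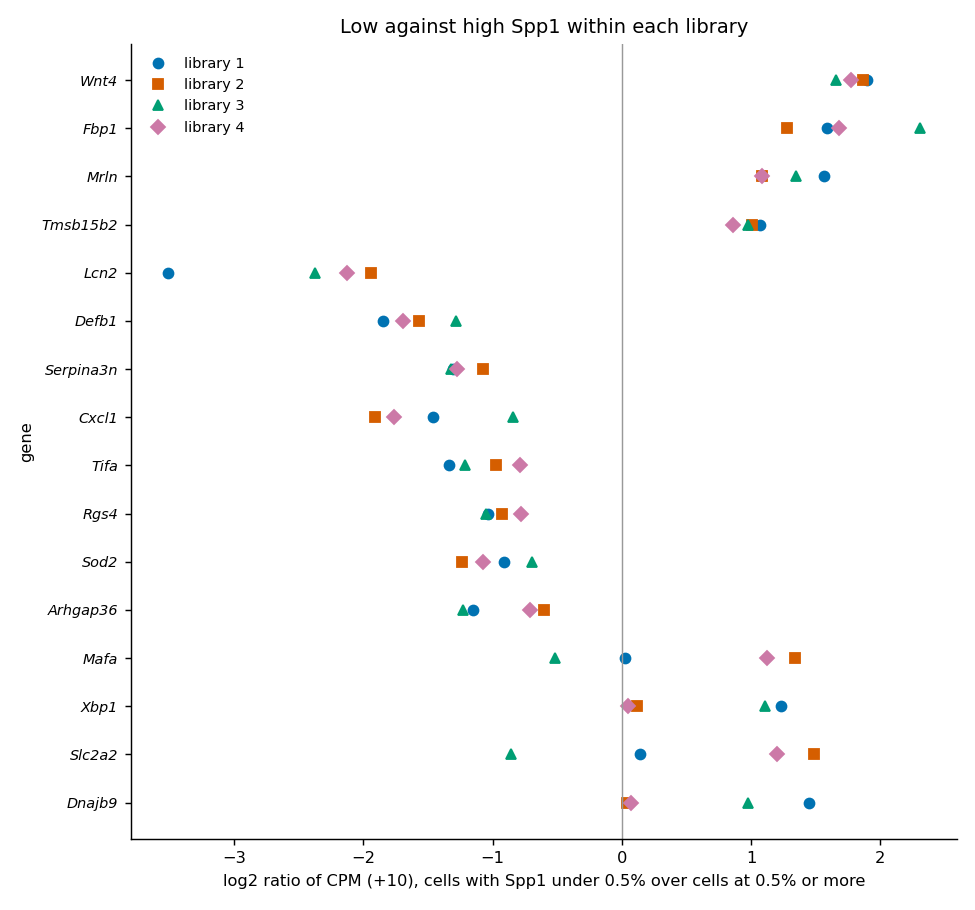
Log2 ratio of CPM (10 added; x axis) in cells with under 0.5% of UMIs from Spp1 over cells with 0.5% or more, for the genes with the largest ratios of common sign and for Mafa, Xbp1, Slc2a2 and Dnajb9 (y axis); each symbol is 1 library and the grey line marks equal levels. Wnt4 lies between 1.65 and 1.89 and Lcn2 between -3.51 and -1.94, while Mafa lies between -0.52 and 1.34.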

How the data were processed

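The deposited values are counts of UMIs per gene and cell, in 1 matrix over 32285 genes and 19987 barcodes. Per the file headers, the authors obtained the counts with Cell Ranger 6.1.2; mm10 is the build in the submitters' processing notes, and no source used here names the annotation. The library is the number at the end of each barcode. The 4 libraries held 82963911, 178396311, 85266513 and 110800927 UMIs, and no column of an unmatched sample was used (0).

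From the counts, the cells were selected as described, UMIs were summed per library, and CPM were taken outside 7 hormone genes or of all genes. Log2 ratios and ranges had 10 CPM added and were taken over genes at 100 CPM or more. Variation was measured after thinning to 3000 non-hormone UMIs per cell, which left out 16, 114, 37 and 51 cells. For levels the 95% intervals are exact Poisson limits, and for shares of cells they follow Clopper and Pearson. No doublet caller was run. Where a symbol had several identifiers (38 symbols), the one with most UMIs was used. Promoter sequences are those of RefSeq on GRCm38.p6. The ratio, range and variance steps were tested on simulated data. Python 3.11.15, numpy 2.4.6, scipy 1.17.1, pandas 2.3.3 and matplotlib 3.10.9 were used.

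The members, the 22 gene lists and the 19 marker lists were chosen with earlier results of these data known. Named genes are Mafa, G6pc2 and Xbp1, up to 4 genes of each list with the widest range, the 12 of widest range, the 12 each way of largest ratio of common sign between low and high Spp1 cells, and the 15 most variable; others (Ttr, Gc, Irx1, Irx2, Krt8, Krt18, Ern1, Atf4, Ddit3 and the chaperones with the promoter motif) were named after their values were seen. Alternatives were other cell filters and hormone or Spp1 limits, all genes in the total, 1 CPM added, other minimum levels, the mean of each cell's CPM, 1500 UMIs, leaving out the 10% of cells with most UMIs, and leaving out each library. A few genes that this rule or the marker lists hold are not reported here.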

Additional observations from a re-analysis of the deposited data

Results flagged for a closer look

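Barcodes that met the hormone and Spp1 limits but failed the cell filter numbered 8, 405, 13 and 272 in libraries 1 to 4 and enter no value of the report. Of these, 4, 378, 6 and 236 had more than 20% mitochondrial UMIs. Their median mitochondrial share was 16.7, 63.6, 6.84 and 66.2%, and their median UMI count 827, 1998, 1725 and 1057.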

How the results depend on the processing

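The counts of genes, the named ranges and ratios and the ranges of list medians were recomputed under the alternatives, with no test behind any of them; marker sums, hormone shares, endothelial levels and correlations across cells were not. Of 2100 recomputed values, 1844 were kept (a count within 1.5 times its main value, a log2 value within 0.2), 256 moved, and 0 of the named ratios between low and high Spp1 cells (median over the libraries) changed sign; a range has no sign. The 5460 cells became 5098 to 5374 with other limits. The 27 genes of at least 4-fold range became 14 with all genes in the total and 66 with a minimum of 20 CPM or with none, and 16 to 25 when 1 library was left out; the lowest of these counts was without library 3. The 157 genes of at least 2-fold range became 90, 434 and 519 under those settings, and 107 to 145 without 1 library. Fewer genes reach 100 CPM with all genes in the total, and more are counted with a lower minimum. The 3 genes higher in low Spp1 cells of every library were 1 with all genes in the total and 3 without any 1 library, and the 4 lower were 4 to 7 without 1 library, 7 being without library 3. The 65 genes variable in every library were 31 at 1500 UMIs and 33 at 3000 UMIs with the hormone genes in, where fewer UMIs of each gene remain, and 72 to 76 without 1 library. Of the 245 other values that moved, 98 did so with all genes in the total, in which the median range of the ER chaperones was 0.46 rather than 0.76. Chosen after seeing the data, leaving out cells with markers of another type gave 20 and 148 genes of 4-fold and 2-fold range and moved 8 other values, and leaving out cells under 10000 UMIs gave 27 and 159. No paired analysis was possible because the library numbers are not tied to samples and no test was made. Leaving out the 10% of cells with most UMIs in each library, as a guard for doublets, moved 9 other values. Depth limits the lowest levels and the classes with few cells.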
